A study of Mus musculus with 9 samples.

Results

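The clustered replication-dependent histone genes were taken as the protein-coding genes of the deposited count table whose GENCODE M21 symbol starts with Hist1h, Hist2h, Hist3h or Hist4h, which gave 67 of the 52780 genes. They comprise 6 linker histone H1 genes, 18 H2A, 18 H2B, 12 H3 and 13 H4 genes. In GRCm38, 54 of them lie in the Hist1 cluster on chromosome 13 (21715763 to 23934851), 10 in the Hist2 cluster on chromosome 3 (96219865 to 96270132), 2 in Hist3 on chromosome 11 and 1 in Hist4 on chromosome 6. The 3 pseudogenes with such symbols were left out. Their mRNA was measured in C2C12 cells, an immortalized line of mouse muscle precursors that form myotubes once serum is reduced, collected at day 4 of differentiation. All 9 samples had been transfected repeatedly with siRNA at 10 nM, and 3 each had received a control siRNA (si Ctrl, wild type in the sample labels), an siRNA against the splice isoform macroH2A1.1 (si mH2A1.1) or an siRNA against macroH2A1.2 (si mH2A1.2). All cells come from a single established line, and the libraries hold poly(A)-selected RNA only, sequenced as single 50 bp reads.

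Replication-dependent histone genes supply the core and linker histones that package newly made DNA, and their mRNAs accumulate when cells replicate DNA. These mRNAs are the exception among animal mRNAs in that they normally end in a conserved stem-loop, which the stem-loop-binding protein SLBP holds, and not in a poly(A) tail. Differentiated, non-dividing cells shut most of them down, while some of the genes also give longer, polyadenylated transcripts, and poly(A) selection enriches for those forms. MacroH2A1 is itself a histone H2A variant, but it is encoded by the gene H2afy outside these clusters and is made independently of replication.

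The stem-loop was searched in the longest annotated coding transcript of each member, as a stem of 6 bases starting with GG, a loop of 4 bases and the paired arm of 6 bases ending in CC. It was found in 45 members, which is 90.0% of the 50 members with at least 50 annotated bases after the stop codon, against 0.180% of 20499 other protein-coding genes. It starts 21 to 58 bases after the stop codon, with a median of 31. The sites of 8 members that the results below turn on are shown to make the shared element and its class differences visible, each 5′ to 3′ on the mRNA strand in DNA letters, with the stem-loop in capitals and 5 bases on either side.
Hist1h1c: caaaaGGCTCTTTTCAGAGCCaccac
Hist1h1e: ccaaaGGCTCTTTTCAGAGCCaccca
Hist1h2be: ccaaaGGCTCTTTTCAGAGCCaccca
Hist2h3c2: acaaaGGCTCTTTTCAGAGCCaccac
Hist1h3e: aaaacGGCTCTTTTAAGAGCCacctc
Hist1h4c: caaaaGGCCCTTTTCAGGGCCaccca
Hist1h4i: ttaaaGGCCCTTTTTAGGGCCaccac
Hist1h4n: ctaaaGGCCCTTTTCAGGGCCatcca
The form seen in Hist1h1c, Hist1h1e, Hist1h2be and Hist2h3c2 occurs in 25 members of the H1, H2A, H2B and H3 classes. Each of the 12 H4 members with a stem-loop carried an H4 form, of which the one in Hist1h4c and Hist1h4n is the most common, with 7 members. The 6 bases AATAAA, the usual signal for polyadenylation, lie in the last 50 bases of 14 of these 50 members (28.0%) and of 62.2% of the other coding genes.

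The promoters of 62 members were matched in RefSeq (GRCm38.p6, 250 bases before to 50 after the annotated start). They were searched on both strands for the letters TATAAA, the TATA box, for CCAAT, and for ATTTGCAT, the octamer that Oct1 (Pou2f1) recognizes in H2B promoters. TATAAA was found in 35 of the 62 (56.5%) against 14.1% of the other promoters, CCAAT in 53 (85.5%) against 37.8%, and the octamer in 13 (21%) against 1.71%. CCAAT was present in every matched H1, H2A, H2B and H3 promoter and in 3 of 12 H4 promoters, and the octamer was found in 7 H2A and 6 H2B promoters and in no other class. The promoters of 3 genes are shown, Hist2h3c2, which stayed called in every fit below that left out a sample, Hist1h4n, an H4 gene with a large difference, and Hist1h2bg, which holds all 3 motifs, with matches to the motifs in capitals. They lie at chr3:96239078-96239377 (minus strand), chr13:21832148-21832447 (minus strand) and chr13:23571150-23571449 (plus strand).
Hist2h3c2: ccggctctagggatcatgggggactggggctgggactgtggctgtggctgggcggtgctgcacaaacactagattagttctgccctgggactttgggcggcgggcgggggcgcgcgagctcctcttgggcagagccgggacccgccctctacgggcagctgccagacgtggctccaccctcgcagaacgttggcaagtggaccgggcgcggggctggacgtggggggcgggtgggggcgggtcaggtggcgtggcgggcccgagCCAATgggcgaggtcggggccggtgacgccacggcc
Hist1h4n: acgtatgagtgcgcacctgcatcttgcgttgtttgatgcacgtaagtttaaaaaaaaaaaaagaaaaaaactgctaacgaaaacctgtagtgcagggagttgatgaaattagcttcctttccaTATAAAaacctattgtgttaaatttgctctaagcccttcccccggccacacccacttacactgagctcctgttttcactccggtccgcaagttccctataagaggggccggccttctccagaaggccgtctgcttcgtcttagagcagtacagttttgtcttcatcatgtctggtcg
Hist1h2bg: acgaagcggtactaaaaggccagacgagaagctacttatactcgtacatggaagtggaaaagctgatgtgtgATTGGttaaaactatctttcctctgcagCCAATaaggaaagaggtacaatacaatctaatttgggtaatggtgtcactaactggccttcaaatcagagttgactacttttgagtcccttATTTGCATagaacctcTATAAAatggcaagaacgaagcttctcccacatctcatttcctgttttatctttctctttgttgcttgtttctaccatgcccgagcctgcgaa
These matches describe the letters only. Within the clusters, 13 pairs of members start head to head within 1000 bases of each other, at 176 to 660 bases between the starts (median 268). Of these pairs, 12 are an H2A with an H2B gene. The widest, at 660 bases, is the H2B gene Hist1h2bh with the H3 gene Hist1h3f. The promoter windows of an H2A gene and its paired H2B gene can cover the same DNA, as that of Hist1h2bg holds the annotated start of Hist1h2ae. A single match can thus count for both genes, so the motif counts above are not of separate promoters.

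The libraries held 36924252 to 42223108 estimated reads each. H2afy, the targeted gene, was measured as the sum of both isoforms, so the table cannot tell the isoforms apart. Its level, in CPM (reads of a gene per 1000000 reads of the library, with library sizes scaled by TMM), was 56.3, 62.4 and 61.0 in the si Ctrl samples, 38.8, 30.0 and 30.9 in the si mH2A1.1 samples and 46.8, 47.2 and 43.2 in the si mH2A1.2 samples. The groups did not overlap. The log2 fold change was -0.85 ± 0.11 (SE, n = 3) for si mH2A1.1 (adjusted p = 0.00331, edgeR quasi-likelihood test) and -0.39 ± 0.11 for si mH2A1.2 (adjusted p = 0.108, which did not pass). Genes of the muscle lineage were abundant in every sample, with 10 myotube markers summing to 16072 to 27815 CPM, whereas 10 markers of fat, bone, blood, endothelial and glial cells summed to 1.26 to 2.74 CPM. Adipoq, Cidec, Ibsp and Sox10 had at most 2 reads in any sample. Among the si mH2A1.1 samples, replicate 2 was the lowest of its group for 23 of the 32 tested histone genes (71.9%) and for all 31 S phase and 10 mitosis genes listed below, against 34.9% of all tested genes.

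The histone clusters contributed 0.0132% to 0.0211% of the reads of a library. Reads were assigned to 65 members, and Hist1h2ba and Hist2h3c1 had none in any sample. For Hist1h2ba, a count of 0 in a library of this size allows up to 3 reads. Every 50-base window of Hist2h3c1 also occurs in Gm20634, which had 330 to 1276 reads per sample. Its count of 0 thus depends on how shared reads were assigned and sets no bound on its level. The filter on low counts, 0.259 CPM in at least 3 samples, kept 32 members (4 H1, 6 H2A, 9 H2B, 5 H3 and 8 H4) and left out 35, each of which had between 0 and 35 reads in any sample. Of the 32, 5 (Hist1h2ad, Hist1h2ae, Hist1h2bn, Hist1h3h and Hist1h3i) reached the filter only with the help of si mH2A1.1 samples. Counts over the 32 therefore describe these genes and do not stand for all 67.

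Very few genes made up most of the signal. Hist1h1c (chromosome 13, 23738808 to 23740367), which encodes the linker histone H1.2, held 42.2% of all reads of the clusters, and Hist1h2bc (chromosome 13, 23684199 to 23692908), an H2B gene with 2 annotated exons, held 19.7%. Per length of exon, the highest mean levels over the 9 samples were those of Hist1h1c (42.2 RPKM, the CPM divided by the exon length in kilobases), Hist1h2bc (26.3 RPKM), the H2A gene Hist2h2aa2 (10.1 RPKM), the H4 gene Hist1h4i (5.41 RPKM) and the H2B gene Hist1h2bq (4.63 RPKM). In the H3 class the highest was Hist2h3c2 with 1.67 RPKM. The 27 members whose annotated transcript runs at least 100 bases past the stem-loop or has 2 exons held 88.5% of the reads of the clusters, 20 of them passed the filter, and they include 7 of the 9 genes called in any comparison below. The 21 members whose transcript ends within 60 bases of the stem-loop held 6.27% of the reads, and 4 passed. Salmon assigns reads to annotated sequence only, and the part of the annotated ends in these levels was not tested.

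**Figure D1:**
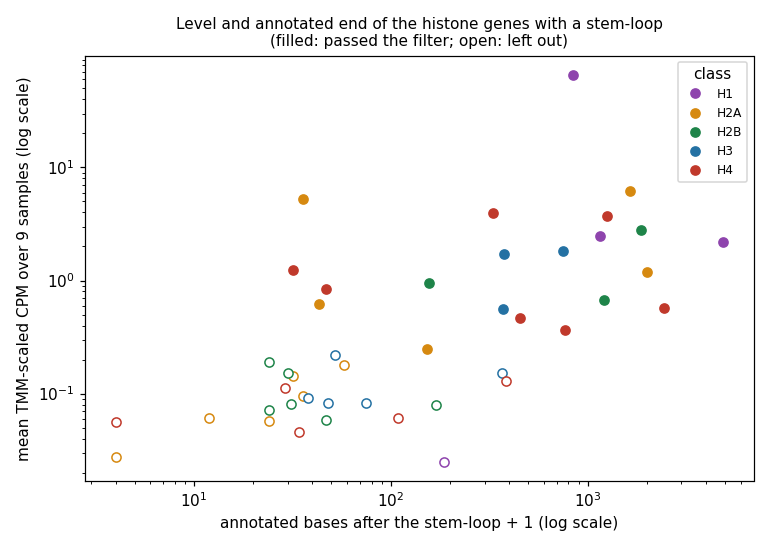
Mean level over the 9 samples (y axis, TMM-scaled CPM, log scale) against the annotated transcript length after the stem-loop (x axis, bases plus 1, log scale) for the 44 members with a stem-loop and a read, coloured by class, filled where the gene passed the filter and open where it was left out. Hist1h1c stands highest at 65.8 CPM, and of the 24 members with a stem-loop that were left out, 17 have an annotated end of at most 60 bases.

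Reads of 50 bases cannot always tell these genes apart. In 34 members more than 50% of the 50-base windows of the transcripts also occur in another gene, and in 5 members all do. Hist1h2bq shares 97.3% with Hist1h2br, Hist2h2aa2 shares 100% with Hist2h2aa1, Hist1h4n shares 83.2% with Hist1h4m, and Hist2h3c2 shares 63.5% with Gm20634, so the split of reads inside such pairs is uncertain, and the sum of each of these 4 pairs is given below. Hist1h1e and Hist1h2be overlap over 496 bases on the same strand. A further 20 members overlap a gene on the opposite strand, and the sources used here do not say whether reads were counted by strand.

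The first comparison, si mH2A1.1 against si Ctrl, asks how these genes differed after knockdown of macroH2A1.1. Of the 32 tested histone genes, 5 were called higher (15.6%) and 0 lower, where 11.1% of all 19545 tested genes were called, 6.18% higher and 4.93% lower. Called means an adjusted p of 0.05 or less in an edgeR quasi-likelihood fit of all samples at once, adjusted over every tested gene. Without the 5 genes that reached the filter only with si mH2A1.1 samples, 4 of 27 were called (14.8%). The called genes were the H3 gene Hist2h3c2, the H2B genes Hist1h2bn, Hist1h2bc and Hist1h2be, and the H4 gene Hist1h4n. The median log2 fold change of the 32 was 0.62, and 0.61 over the 27, against -0.01 for all tested genes. It was 0.64 for H4 (8 genes) and 0.40 for H1 (4), classes that hold none of the 5. In the other classes the 5 weighed on it, since without them the median went from 0.85 to 0.73 for H2B (8 genes left), from 0.74 to 1.50 for H3 (3 left) and from 0.31 to -0.05 for H2A (4 left). Of the 65 members with a read, 14 lay with all si mH2A1.1 samples above all si Ctrl samples, and 0 lay below, where 11.3% and 11.0% of all genes with a read did so. In bulk RNA, more cells that express a gene and more RNA per cell cannot be told apart.

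**Figure D2:**
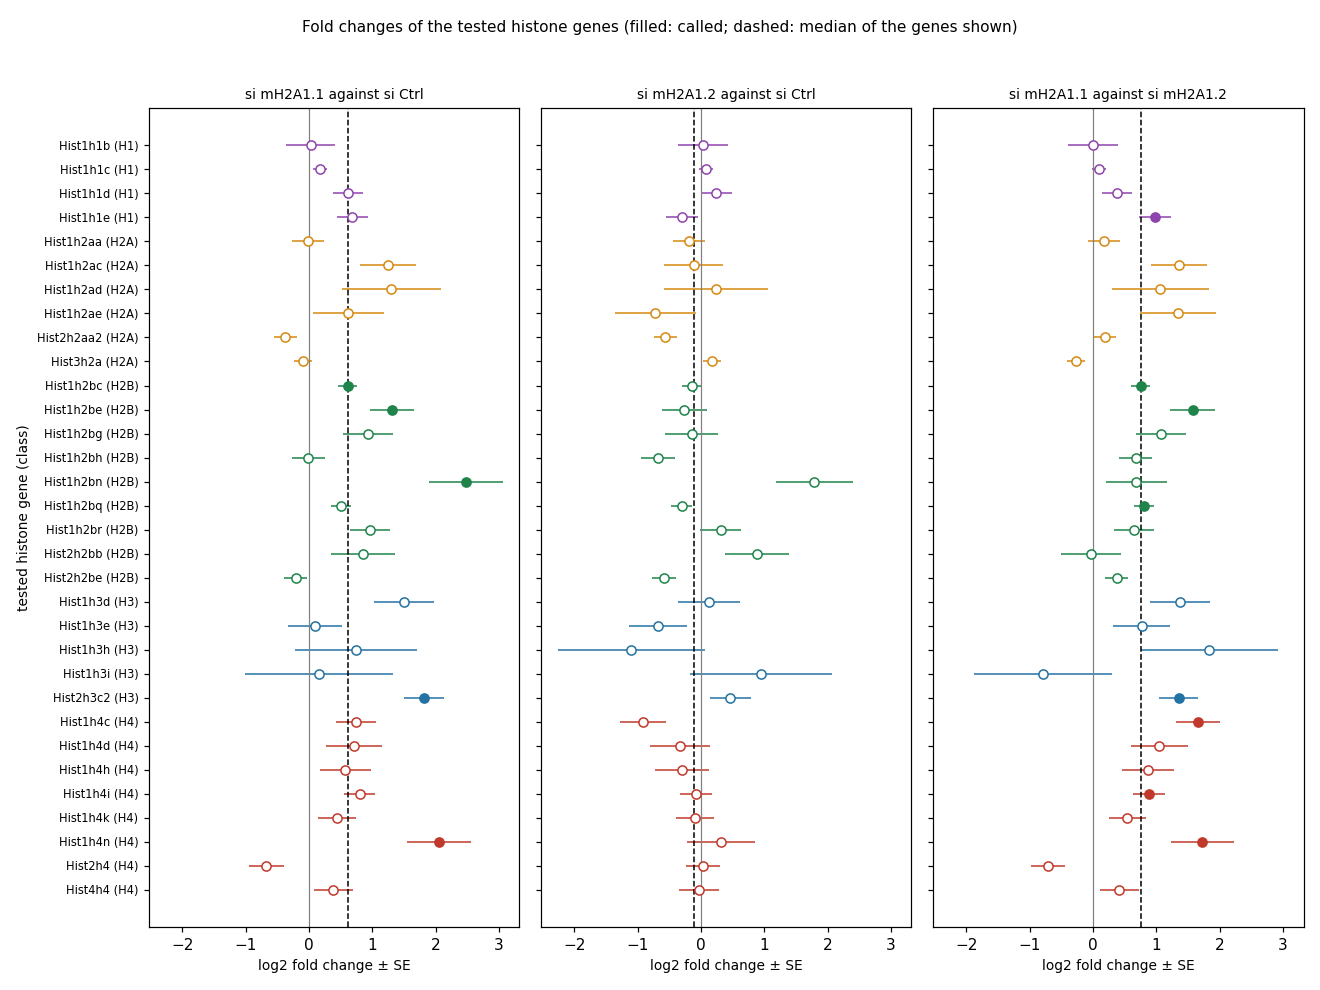
Log2 fold change with its SE (x axis) of each of the 32 tested histone genes (y axis, ordered by class) in the 3 comparisons, from the edgeR fit of the 9 samples, with filled points for called genes, a solid line at 0 and a dashed line at the median of the 32. Filled points appear in the left panel (5) and the right panel (8), all to the right of 0, and the middle panel has none.

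Hist2h3c2 (ENSMUSG00000081058, chromosome 3, 96238108 to 96239127), which encodes core histone H3, had 0.509, 1.09 and 0.98 CPM in the si Ctrl samples, 3.73, 2.15 and 3.27 CPM in the si mH2A1.1 samples and 1.38, 1.2 and 0.994 CPM in the si mH2A1.2 samples. All si mH2A1.1 samples lay above the other 6, which overlapped each other. Its log2 fold change was 1.82 ± 0.32 (SE, n = 3, adjusted p = 0.00856, edgeR), and it was the 1 histone gene still called against si Ctrl when any of the 9 samples was left out, with adjusted p up to 0.0368. Gm20634, the gene that shares sequence with it, had 15.4, 9.78 and 22.3 CPM under si Ctrl, and 31.5, 19.2 and 29.4 CPM under si mH2A1.1. The sum of both was 15.9, 10.9 and 23.3 CPM under si Ctrl, 35.2, 21.3 and 32.6 CPM under si mH2A1.1 and 16.7, 9.81 and 12.6 CPM under si mH2A1.2. In this sum, most of which is Gm20634, si mH2A1.1 replicate 2 lay below si Ctrl replicate 3, so that these groups overlapped. Hist1h3d, another H3 gene, had 1.66, 0.613 and 1.03 CPM under si Ctrl, and 4.94, 1.63 and 2.79 CPM under si mH2A1.1. The groups overlapped at si mH2A1.1 replicate 2, and the log2 difference of 1.50 ± 0.47 did not pass (adjusted p = 0.0656), though it did in DESeq2 (0.016). Hist1h3e had a log2 difference of 0.10 ± 0.43 (adjusted p = 0.904).

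In the H4 class, Hist1h4n (ENSMUSG00000069305, chromosome 13, 21831767 to 21832196) had 0.83, 0.16 and 0.748 CPM in the si Ctrl samples and 3.58, 1.43 and 2.23 CPM in the si mH2A1.1 samples, which did not overlap. The si mH2A1.2 samples, at 0.826, 0.496 and 0.859 CPM, overlapped the controls. Its log2 fold change was 2.05 ± 0.51 (adjusted p = 0.0311, edgeR). Summed with its near copy Hist1h4m, the level was 0.703 ± 0.153 CPM (SD, n = 3) under si Ctrl, and 2.43 ± 1.06 CPM under si mH2A1.1, a ratio of 3.46 without overlap. Hist1h4i, the H4 gene with the highest level, had 3.40, 3.14 and 3.04 CPM under si Ctrl, and 6.79, 3.41 and 6.52 CPM under si mH2A1.1. Replicate 2 stood just above the controls and the other replicates well above, and the log2 difference of 0.80 ± 0.25 did not pass (adjusted p = 0.0626, and 0.00696 without that sample). Hist1h4c and Hist1h4k had log2 differences of 0.75 ± 0.32 and 0.45 ± 0.30, with adjusted p of 0.148 and 0.343.

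The H2B class held 3 of the called genes. Hist1h2bc (ENSMUSG00000018102) had 23.6, 28.3 and 27.8 CPM under si Ctrl, 48.1, 32.0 and 41.9 CPM under si mH2A1.1 and 21.2, 25.1 and 26 CPM under si mH2A1.2. The si mH2A1.1 samples lay above all others, and the log2 fold change against si Ctrl was 0.61 ± 0.15 (adjusted p = 0.0313, edgeR). Hist1h2be (ENSMUSG00000047246, chromosome 13, 23583670 to 23621124) had 2.54, 1.57 and 1.73 CPM under si Ctrl, and 6.77, 3.21 and 4.56 CPM under si mH2A1.1 (2.42, 1.30 and 1.15 CPM in the si mH2A1.2 samples), where si mH2A1.1 lay above both groups, with a log2 fold change of 1.31 ± 0.35 (adjusted p = 0.0398). Hist1h2bn (ENSMUSG00000095217, chromosome 13, 21754123 to 21754503) rested on few reads, namely 4, 2 and 4 under si Ctrl, 26, 12 and 25 with si mH2A1.1 and 15, 16 and 4 with si mH2A1.2. Scaled for library size, the summed reads with si mH2A1.1 were 5.76 times those under si Ctrl, with an exact 95% interval of 2.93 to 12.6 for counting error alone. It was called with a log2 fold change of 2.48 ± 0.58 (adjusted p = 0.026) but passed the filter only through si mH2A1.1, and 86.4% of its windows occur in other genes. Hist1h2bq had 8.94, 8.77 and 8.30 CPM under si Ctrl, and 14.2, 10.3 and 12.4 CPM under si mH2A1.1. The si mH2A1.2 samples had 5.75, 8.06 and 7.28 CPM. The si Ctrl and si mH2A1.1 samples did not overlap, but the log2 difference of 0.50 ± 0.16 did not pass (adjusted p = 0.0704, and 0.0346 with DESeq2). Summed with its near copy Hist1h2br, the level was 9.80 ± 0.821 CPM (SD, n = 3) under si Ctrl, 14.5 ± 2.11 CPM under si mH2A1.1 and 8.44 ± 1.04 CPM under si mH2A1.2, and the si mH2A1.1 samples lay above both groups, at 1.48 times si Ctrl. Hist1h2bg had a log2 difference of 0.93 ± 0.39 (adjusted p = 0.145).

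In the linker class the gene with most reads did not follow the called genes. Hist1h1c had 56.2, 71.5 and 58.6 CPM under si Ctrl, and 66.0, 71.5 and 72.4 CPM under si mH2A1.1, overlapping, with a log2 difference of 0.17 ± 0.11 (adjusted p = 0.334). Hist1h1e, which encodes H1.4, had 2.46, 2.16 and 1.83 CPM under si Ctrl, and 4.05, 2.77 and 3.55 CPM under si mH2A1.1. The groups were apart, and the log2 difference of 0.68 ± 0.24 did not pass (adjusted p = 0.0939). Hist1h1b, the H1.5 gene, was close to the filter cutoff with 0.294, 0.293 and 0.335 CPM against 0.247, 0.37 and 0.323 CPM. None of the 6 tested H2A genes was called. Hist2h2aa2 (-0.37 ± 0.18), Hist3h2a (-0.09 ± 0.14) and Hist1h2aa (-0.01 ± 0.25) had log2 differences below 0, with adjusted p of 0.194, 0.696 and 0.984. Those of Hist1h2ac (1.25 ± 0.44), Hist1h2ad (1.30 ± 0.78) and Hist1h2ae (0.62 ± 0.56) were above 0, with adjusted p of 0.0908, 0.295 and 0.492, and Hist1h2ac passed in DESeq2 (0.0499). Hist1h2ac had 0.883, 0.533 and 1.06 CPM under si Ctrl, and 2.42, 0.84 and 2.63 CPM under si mH2A1.1, where replicate 2 lay among the controls. Hist1h2ad and Hist1h2ae are among the 5 genes that reached the filter only with si mH2A1.1 samples.

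**Figure D3:**
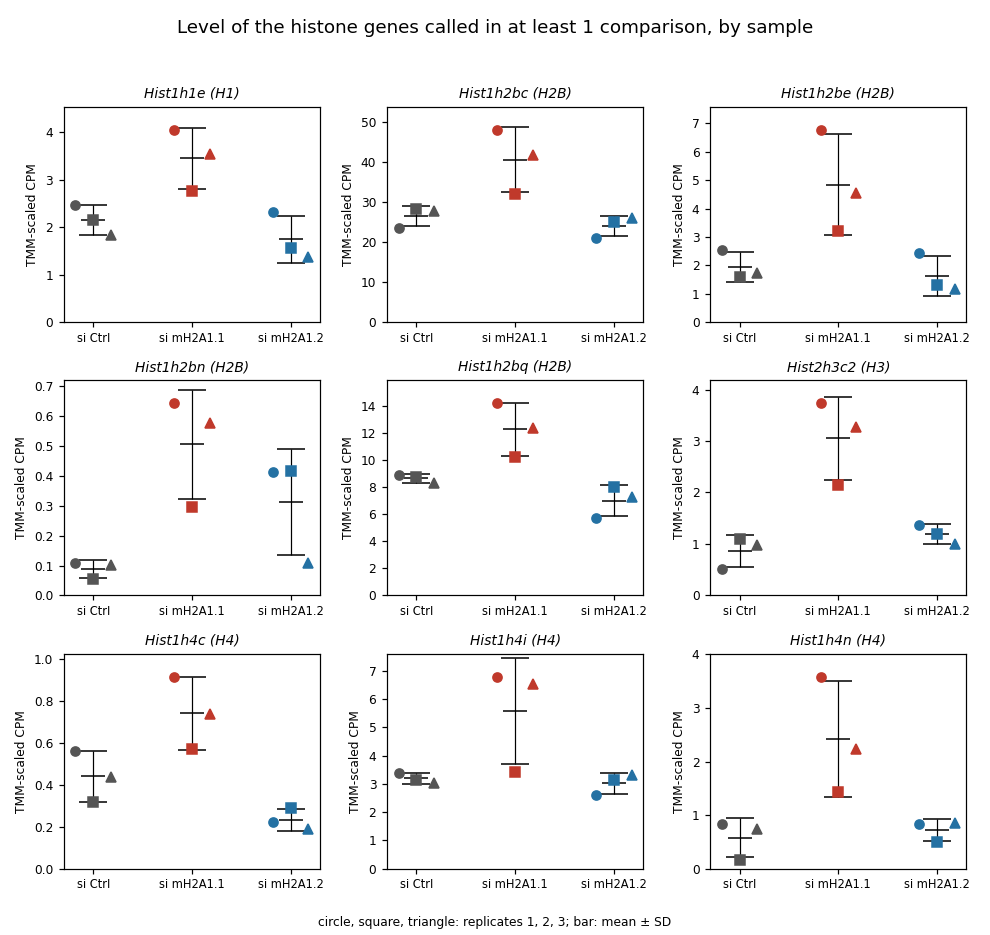
TMM-scaled CPM (y axis, from 0) of the 9 histone genes called in at least 1 comparison, by group (x axis), with a circle, square and triangle for replicates 1, 2 and 3 and bars for mean ± SD (n = 3). In each panel the square of si mH2A1.1 is the lowest of its group, as for Hist1h4i with 3.41 CPM against 6.79 and 6.52.

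The calls against si Ctrl depended on single libraries. Without si mH2A1.1 replicate 2 there were 10 called histone genes, and without si Ctrl replicate 2, si Ctrl replicate 3, si mH2A1.1 replicate 1 or si mH2A1.1 replicate 3 only Hist2h3c2 was left, while leaving out si Ctrl replicate 1 gave 3. Calls over all tested genes moved alike, from 2171 to 2928 without si mH2A1.1 replicate 2 and to 1524 without si Ctrl replicate 1. In the fits that left only Hist2h3c2 they were 605, 810, 689 and 666, in the order given. DESeq2 called 11 of the 34 histone genes for which it gave an adjusted p (32.4%), all higher and including the 5. Over all 20029 genes with an adjusted p it called 16.7% (9.07% higher). Of the 11, Hist1h3b was not among the 32 that edgeR tested. A stricter rule (adjusted p under 0.01 and a log2 change of 0.8 or more in either direction) left 1, Hist2h3c2. That rule was passed by 1.80% of all tested genes, 1.31% higher and 0.491% lower.

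The second comparison, si mH2A1.2 against si Ctrl, used the same control samples. No histone gene was called by edgeR (0 of 32, where 2.35% of all tested genes were called, 1.37% higher and 0.982% lower), and 5 had an unadjusted p under 0.05 (15.6%, against 15.9% of all tested genes). DESeq2 called 0 of the 27 histone genes for which it gave an adjusted p, where it called 6.24% of 17850 genes (3.46% higher and 2.78% lower). In this comparison the samples were taken as paired by replicate number, by the rule on correlations given under processing. A fit with that number as a block also called 0 of the 32, and it called 5.14% of all tested genes. The stricter rule also gave 0, where 0.179% of all genes passed it, 0.128% higher and 0.0512% lower. The median log2 difference of the 32 was -0.10, and -0.11 without the 5 genes that reached the filter only with si mH2A1.1 samples, against 0.00 for all genes. With all samples below all si Ctrl samples there were 8 of the 65 members, and 1, Hist1h2bn, lay above, where 6.80% and 7.89% of all genes with a read did so. Hist2h2aa2, the H2A gene with the highest level, had 6.83, 5.01 and 7.66 CPM under si Ctrl, and 4.32, 4.07 and 4.83 CPM under si mH2A1.2. These did not overlap, and the log2 difference of -0.56 ± 0.18 did not pass (adjusted p = 0.15). Its transcript is found whole in Hist2h2aa1, so the sum of both is given. This was 6.78 ± 0.898 CPM (SD, n = 3) for si Ctrl, 5.03 ± 0.329 CPM for si mH2A1.1 and 4.41 ± 0.389 CPM for si mH2A1.2, where the si Ctrl samples lay above both. All 528 exonic bases of Hist2h2aa2 and all 586 of Hist2h2aa1 also overlap opposite-strand genes. Without knowing whether reads were counted by strand, the sum does not settle which gene its reads came from. Hist1h4c had 0.562, 0.32 and 0.438 CPM under si Ctrl, and 0.22, 0.287 and 0.188 CPM under si mH2A1.2, and its log2 difference was -0.91 ± 0.36 (adjusted p = 0.242). Hist1h2bq was at -0.30 ± 0.16 (adjusted p = 0.417) and Hist1h2bn at 1.79 ± 0.61 (adjusted p = 0.176). Hist2h3c2, Hist1h2bc, Hist1h2be and Hist1h4n, called with the other siRNA, had log2 differences of 0.47 ± 0.32, -0.14 ± 0.15, -0.26 ± 0.36 and 0.32 ± 0.54.

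Between the knockdowns, si mH2A1.1 against si mH2A1.2, 8 of the 32 histone genes were called higher and 0 lower (25%), where 22.5% of all tested genes were called, 12.0% higher and 10.5% lower. The share called in either direction was thus near that of all genes, and the direction was the same for each called member. None of the 8 was among the 5 genes that reached the filter only with si mH2A1.1 samples. The median log2 fold change was 0.76 with or without those 5, against -0.01 for all tested genes. It was 0.88 for H4 and 0.24 for H1, and without the 5 it was 1.36 for H3, 0.72 for H2B and 0.18 for H2A (0.63 with them). Of the 65 members with a read, 23 lay with all si mH2A1.1 samples above all si mH2A1.2 samples and 3 below (Hist3h2a, Hist2h4 and Hist1h2ah), where 13.2% and 12.7% of all genes did so. The comparison shares the si mH2A1.1 samples with the first, so the values are given side by side and are not independent of it.

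Hist1h2bc (0.76 ± 0.15, adjusted p = 0.00749, edgeR), Hist1h2bq (0.81 ± 0.16, 0.00759) and Hist1h4c (1.66 ± 0.34, 0.00817) had the smallest adjusted p. Hist1h4c had 0.914, 0.568 and 0.737 CPM under si mH2A1.1, so that the si mH2A1.1 samples stood above and the si mH2A1.2 samples below the controls. Hist1h2be (1.57 ± 0.36, adjusted p = 0.012) and Hist2h3c2 (1.36 ± 0.31, 0.0123) were called here as against si Ctrl, and so was Hist1h4n (1.73 ± 0.50, 0.0322). Hist1h1e with 0.98 ± 0.25 (adjusted p = 0.0187) was the 1 linker gene called, with 2.31, 1.57 and 1.37 CPM under si mH2A1.2. It shares 496 exonic bases with Hist1h2be, also called. Hist1h4i was called with 0.88 ± 0.25 (adjusted p = 0.0301), with 2.62, 3.13 and 3.33 CPM under si mH2A1.2. Hist1h1c was at 0.10 ± 0.11 (adjusted p = 0.578) and Hist3h2a at -0.26 ± 0.14 (adjusted p = 0.205). In all, 4 genes were called in both comparisons (Hist2h3c2, Hist1h2bc, Hist1h2be and Hist1h4n) and 9 in either.

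Hist1h2bc, Hist1h2bq, Hist1h4c and Hist2h3c2 were still called between the knockdowns when any sample was left out. The count was 4 without si mH2A1.1 replicate 1 or si mH2A1.2 replicate 2, 5 without si mH2A1.2 replicate 3, and 15 without si mH2A1.1 replicate 2, of which 14 were higher and 1, Hist2h4, lower. Over all tested genes the 4397 calls became 2405, 2251, 2979 and 4616 in these fits, in the same order. DESeq2 called 10 of the 41 histone genes for which it gave an adjusted p (24.4%), all higher. Over all 21482 genes with an adjusted p it called 23.4% (12.7% higher), a share near that of the histone genes. A block for the replicate number in edgeR gave 12 of the 32 (37.5%), where that fit called 29.0% of all tested genes. The stricter rule left 2, Hist1h2bq and Hist1h4c, where 6.38% of all genes passed it, 3.54% higher and 2.84% lower.

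The summed level of the clusters was led by few genes. It was 138.5, 149.2 and 140.1 CPM in the si Ctrl samples, 203.7, 162.4 and 190.7 CPM in the si mH2A1.1 samples and 134.3, 136.9 and 142.1 CPM in the si mH2A1.2 samples. The si mH2A1.1 samples lay above the other 6, at 1.30 times the mean of si Ctrl, and the other groups overlapped. Without Hist1h1c the ratio was 1.44, from 80.5 ± 2.47 CPM (SD, n = 3) to 115.7 ± 23.5 CPM, and the si mH2A1.2 samples, at 72.3 ± 2.08 CPM, lay below all si Ctrl samples. By class, summed H3 had the largest ratio of si mH2A1.1 to si Ctrl, with 2.39 (3.58 ± 0.612 to 8.56 ± 3.69 CPM), and summed H2B followed with 1.52 (44.9 ± 1.47 to 68.2 ± 12.6 CPM). Both were without overlap, whereas H4 (1.35), H1 (1.15) and H2A (1.03) overlapped. H1 without Hist1h1c did not overlap, at 1.54 times si Ctrl, and H2B without Hist1h2bc was at 1.50.

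**Figure D4:**
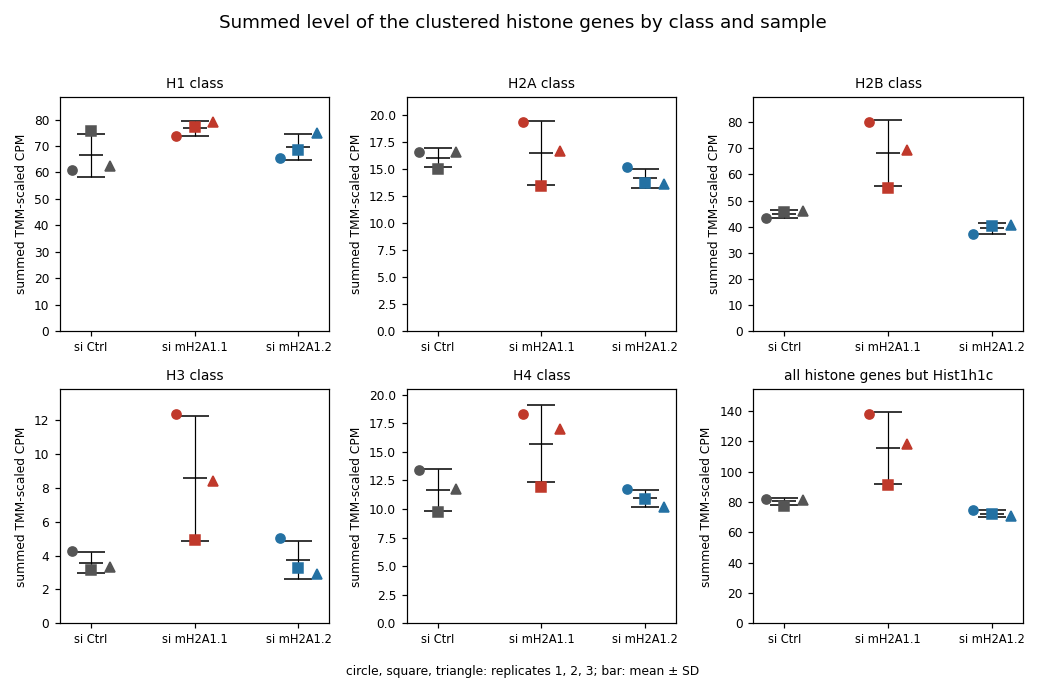
Summed TMM-scaled CPM (y axis, from 0) of the histone genes of each class and of all members but Hist1h1c, by group (x axis), with a circle, square and triangle for replicates 1, 2 and 3 and bars for mean ± SD (n = 3). The si mH2A1.1 symbols stand above all si Ctrl symbols for H2B, H3 and the sum without Hist1h1c, and overlap them for H1, H2A and H4.

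The 4 clusters were also summed apart. The Hist1 sum was 119.2 ± 6.81 CPM (SD, n = 3) in the si Ctrl samples and 163.9 ± 20.2 CPM in the si mH2A1.1 samples, without overlap, while the Hist2 sum was 16.7 ± 2.34 CPM and 15.3 ± 0.568 CPM, overlapping, although Hist2h3c2 belongs to it. The Hist3 sum was 6.18 ± 0.744 and 5.78 ± 0.45 CPM and Hist4, a single gene, 0.521 ± 0.14 and 0.68 ± 0.143 CPM. The differences between clusters were not tested. The 35 members left out by the filter summed to 2.68, 3.17 and 2.45 CPM under si Ctrl, to 6.42, 3.06 and 4.63 CPM under si mH2A1.1 and to 2.28, 1.70 and 1.40 CPM under si mH2A1.2. The si mH2A1.1 samples overlapped the controls at replicate 2 and the si mH2A1.2 samples lay below both.

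Genes that make, fold and use histone mRNA and protein were read from lists written with earlier results of these data known. Over all tested genes, 11.1% were called in the first comparison, 2.35% in the second and 22.5% between the knockdowns. Of 16 genes of histone mRNA synthesis, processing and decay, 2 were called higher and 0 lower with si mH2A1.1 (12.5%, near the share of all genes), namely Ncbp2 (0.73 ± 0.17, adjusted p = 0.0258), a subunit of the cap-binding complex, and Cpsf2 (0.29 ± 0.08, adjusted p = 0.0488), a subunit of the cleavage complex. The median log2 difference of the 16 was 0.22. Neither call was kept when any si Ctrl sample or si mH2A1.1 replicate 1 or 3 was left out (0 of 16). There were 3 calls without si mH2A1.1 replicate 2 and 1 without each of the si mH2A1.2 samples. With si mH2A1.2, 0 of 16 were called. Between the knockdowns Cstf2, Cpsf2 and Upf1 were higher and Npat, the coactivator of histone gene transcription, was lower (-0.41 ± 0.11, adjusted p = 0.0266). That count of 4 (25%, also near the share of all genes) was 0 without si mH2A1.1 replicate 1 or si mH2A1.2 replicate 2, 1 without si mH2A1.1 replicate 3, 2 without si mH2A1.2 replicate 3 and 6 without si mH2A1.1 replicate 2. Slbp, the stem-loop-binding protein, had 27.9, 23.1 and 18.1 CPM under si Ctrl, 34.3, 21.4 and 30.0 CPM under si mH2A1.1 and 22.0, 22.2 and 22.7 CPM under si mH2A1.2. The groups overlapped, and its log2 differences were 0.31 ± 0.19 (adjusted p = 0.297) and -0.05 ± 0.19 (adjusted p = 0.937) against si Ctrl.

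Of 11 histone chaperones, 0 were called against si Ctrl in either comparison, and DESeq2 called 3 higher with si mH2A1.1 and 1 lower with si mH2A1.2. Asf1b, which carries H3 and H4, was at -0.86 ± 0.23 with si mH2A1.2 (adjusted p = 0.0893, and 0.0465 with the replicate block). Between the knockdowns 4 were called higher (36.4%, where 22.5% of all tested genes were called). They were Asf1b (1.29 ± 0.23, adjusted p = 0.00433), Chaf1b (1.69 ± 0.39), Chaf1a (1.35 ± 0.32) and Nasp (0.78 ± 0.19), which carry H3 and H4 to replicating DNA. The other listed chaperones, among them Asf1a and Rbbp4, were not called. The count of called chaperones fell to 1 without si mH2A1.1 replicate 1 or si mH2A1.2 replicate 2. Of 11 replication-independent histone genes, H2afy was the only one called with si mH2A1.1. For si mH2A1.2 it was H2afv, a gene of the H2A.Z family, with 35.6, 36.2 and 35.5 CPM in the si Ctrl samples and 24.2, 26.7 and 22.0 CPM in the si mH2A1.2 samples (-0.56 ± 0.11, adjusted p = 0.0296). That call was lost when any si Ctrl or si mH2A1.2 sample was left out. With the replicate block, H3f3b, a gene of the H3.3 variant, was also called for si mH2A1.2 (0.48 ± 0.11 without the block, adjusted p = 0.0623, and 0.0416 with it). Between the knockdowns H2afv (0.50 ± 0.11, adjusted p = 0.00978) and Cenpa, the centromeric H3 variant (0.82 ± 0.19, adjusted p = 0.0145), were higher with si mH2A1.1 and H2afy was lower (-0.46 ± 0.11, adjusted p = 0.0159). The summed level of these 11 genes was 1022 ± 86.8 CPM (SD, n = 3) under si Ctrl, 1045 ± 64.1 CPM under si mH2A1.1 and 1060 ± 69.5 CPM under si mH2A1.2, overlapping in every pair.

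Genes of the cell cycle were read in the same fit. Of 31 S phase genes, 8 were called higher and 0 lower with si mH2A1.1 (25.8%, median log2 difference 0.86). Among them was Tyms, thymidylate synthase, with 13.3, 10.1 and 8.41 CPM under si Ctrl, and 29.5, 16 and 22.3 CPM under si mH2A1.1 (1.09 ± 0.25, adjusted p = 0.0247). With si mH2A1.2 0 were called (median -0.14). Between the knockdowns 20 were higher and 0 lower (64.5%, median 0.99), led by Uhrf1 (1.91 ± 0.36, adjusted p = 0.00521). Of 10 mitosis genes, 2 were called higher with si mH2A1.1, Plk1 (1.09 ± 0.29, adjusted p = 0.0417) and Birc5 (0.96 ± 0.27, adjusted p = 0.0445), 0 with si mH2A1.2, and 10 between the knockdowns, led by Ccnb2 (1.15 ± 0.20, adjusted p = 0.0036). The summed S phase level was 746.5, 616.2 and 584.1 CPM under si Ctrl, 1287, 670.4 and 1019 CPM under si mH2A1.1 and 584.5, 511.6 and 650.7 CPM under si mH2A1.2. In this S phase sum, si mH2A1.1 replicate 2 lay among the controls and replicates 1 and 3 above them. In the summed histone level replicate 2 was also the lowest of its group. There, at 162.4 CPM, it lay above every control (138.5 to 149.2 CPM). The part of cell division in the histone values was not tested.

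**Figure D5:**
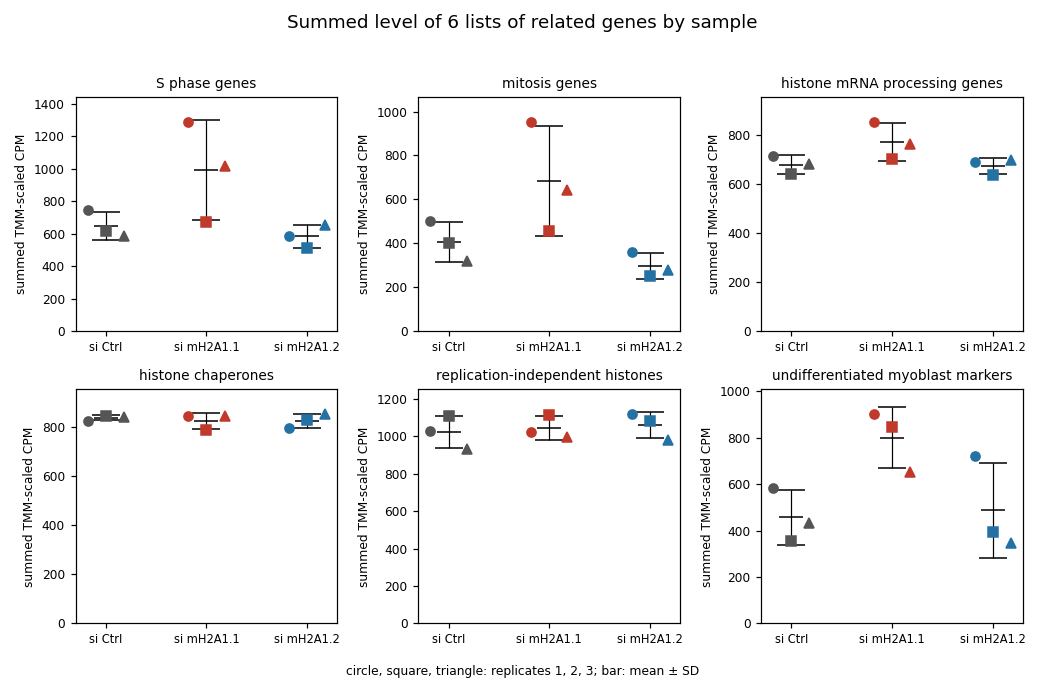
Summed TMM-scaled CPM (y axis, from 0) of 6 lists of related genes by group (x axis), with a circle, square and triangle for replicates 1, 2 and 3 and bars for mean ± SD (n = 3). For S phase and mitosis genes the si mH2A1.1 square (670.4 and 458.0 CPM) lies among the controls and the circle and triangle above them, whereas chaperones and replication-independent histones overlap between all groups.

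These counts also rested on single libraries. So did the calls over all tested genes, which with a sample left out ran from 605 to 2928 for si mH2A1.1 against si Ctrl. Between the knockdowns they ran from 2251 to 4616. Against si Ctrl, the 8 S phase calls became 0 without si Ctrl replicate 2, si Ctrl replicate 3, si mH2A1.1 replicate 1 or si mH2A1.1 replicate 3, 13 without si Ctrl replicate 1, 2 without si mH2A1.2 replicate 2, 3 without si mH2A1.2 replicate 3 and 23 without si mH2A1.1 replicate 2. Between the knockdowns the 20 calls became 3 without si mH2A1.1 replicate 1, 6 without si mH2A1.1 replicate 3, 2 without si mH2A1.2 replicate 2 and 13 without si mH2A1.2 replicate 3. The 2 mitosis calls against si Ctrl became 9 without si mH2A1.1 replicate 2, 3 without si mH2A1.2 replicate 1, 1 without si Ctrl replicate 1 and 0 without any of the remaining samples, and the 10 between the knockdowns stayed at 6 to 10.

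Markers of the differentiation state were read as well, and their part in the histone values was not tested. Of 10 myotube markers, Myog and Actn2 were called lower with si mH2A1.1, and Actn2, Tnnt3 and Des with si mH2A1.2, where the replicate block added Ckm, also lower (adjusted p = 0.0786, and 0.0132 with the block). The first count was 1 without si Ctrl replicate 2, si Ctrl replicate 3 or si mH2A1.1 replicate 1 and 0 without si mH2A1.1 replicate 3, and the second was 1 without si Ctrl replicate 1, si Ctrl replicate 3, si mH2A1.2 replicate 1 or si mH2A1.2 replicate 2. Between the knockdowns Des, Ckm, Tnnt3 and Actn2 were higher and Myog lower with si mH2A1.1, a count of 5 that was 2 without si mH2A1.1 replicate 3 or si mH2A1.2 replicate 2 and 3 without si mH2A1.2 replicate 3. The summed level overlapped between all groups, with 18757 to 27815 CPM for si Ctrl, 17734 to 21458 CPM for si mH2A1.1 and 16072 to 20378 CPM for si mH2A1.2. Of 4 genes listed as markers of undifferentiated myoblasts (Pax7, Myf5, Myod1 and Cdh15), 0 were called with si mH2A1.1. Myf5 was called lower with si mH2A1.2, a call lost when any of the 9 samples was left out. The study names MyoD among the factors that rise when myoblasts differentiate, so this list does not mark undifferentiated cells alone. Between the knockdowns Myf5 (1.17 ± 0.18) and Pax7 (1.32 ± 0.27) were higher with si mH2A1.1, with adjusted p of 0.00203 and 0.00811. The summed level of the 4 was 353.6 to 585.5 CPM under si Ctrl, 651.5 to 901.1 CPM under si mH2A1.1 and 346.9 to 723.5 CPM under si mH2A1.2, so that the si mH2A1.1 samples lay above the controls. Most of this sum was Cdh15, with a mean of 329.2 CPM under si Ctrl and 651.7 CPM under si mH2A1.1. Of the 10 markers of other lineages 5 passed the filter, and 0 were called in any of the 3 comparisons.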

How the data were processed

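RNA-seq data of C2C12 cells at day 4 of differentiation were analysed in 9 samples, 3 per group, grouped by the sample labels. The authors selected poly(A) RNA, sequenced single 50 bp reads and quantified genes with Salmon on GRCm38 (mm10). The deposited table holds these expected counts, estimated reads per gene rounded to whole numbers, without normalization. A second table, the same counts after division by 1 size factor per sample, was not used. The annotation release is not given in the sources used here, and gene names, positions and transcripts came from GENCODE M21 (52762 of 52780 genes matched). Salmon shares reads among similar transcripts, which bears on near-identical histone genes.

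Counts were tested with edgeR 4.0.16 in R 4.3.3 (TMM, filterByExpr on the groups with a minimum count of 10, quasi-likelihood test in legacy form, 1 model of the 9 samples, Benjamini-Hochberg adjustment over 19545 genes). A gene was called at an adjusted p of 0.05 or less, the cutoff of the study's methods. Alternatives were DESeq2 1.42.0, its size factors, no filter, a block for the replicate number, a fit of just the 2 groups compared, edgeR 4's newer form, a stricter cutoff and leaving out each sample. DESeq2 with the block, and counts without the histone genes that reached the filter only with si mH2A1.1 samples, were added after the data were seen. Replicate numbers were taken to pair samples where each of the 3 same-numbered pairs of a comparison correlated above 0.1 in their deviations from the group means. That held for si mH2A1.2 against si Ctrl (0.196 to 0.331) and for no other comparison, and the labels give no shared day or batch. On simulated data for si mH2A1.1 against si Ctrl (19139 genes, 200 changed), edgeR recovered 71.0% of the 2-fold and 97.0% of the 4-fold changes. The changed genes were drawn only from genes with a mean above 1 CPM, and no effect of the replicate number was simulated. These rates therefore do not describe histone genes below that level, such as Hist1h2bn with a mean of 0.302 CPM.

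The members and gene lists were chosen with earlier results of these data known. Named were the members called in any contrast, the 3 members of each class with the highest mean RPKM, Slbp and, per list of related genes, the called gene with the smallest adjusted p in each contrast. Other names in the text complete small counts or explain overlaps and were chosen after their values were seen. CPM are TMM-scaled, RPKM divide them by the union of exons, and intervals cover counting error only. The labels do not say that replicates come from separate cultures, while the study's legends call them independent biological replicates. With 3 samples against 3, the smallest p of an exact permutation test is 0.1. Figures and sequence searches used Python 3.11.15 (matplotlib 3.10.9, scipy 1.17.1, numpy 2.4.6, pandas 2.3.3).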

Additional observations from a re-analysis of the deposited data

How the results depend on the processing

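The 18 histone genes named by rule were followed in the 3 comparisons under each alternative. None that was called changed direction. Of 221 values of called genes, 175 stayed called and 46 did not, and of 696 values of genes that were not called, 648 stayed so, 22 became called and 26 changed sign. The 26 were of small log2 differences, and the cause was not tested. For Hist1h1b the log2 difference was -0.0099 for si mH2A1.2 against si Ctrl in DESeq2 with the block, and between the knockdowns it was 0.00197 in DESeq2, 0.026 with the replicate block, 0.0015 in the newer edgeR form and 0.045 in DESeq2 with the block. Leaving out each sample in turn gave these ranges of log2 differences. In si mH2A1.1 against si Ctrl, Hist1h1b -0.11 to 0.17, Hist1h2aa -0.17 to 0.13 and Hist1h3e -0.30 to 0.52. In si mH2A1.2 against si Ctrl, Hist1h1b -0.45 to 0.24, Hist1h2bg -0.42 to 0.092, Hist1h3d -0.27 to 0.55, Hist1h4i -0.15 to 0.012, Hist1h4k -0.30 to 0.081 and Hist1h4n -0.12 to 0.67. In si mH2A1.1 against si mH2A1.2, Hist1h1b -0.22 to 0.47.

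The histone genes called for si mH2A1.1 against si Ctrl numbered 11 in DESeq2, 10 with the replicate block, 9 in DESeq2 with the block (chosen after seeing the data) and 1 under the stricter rule, and 1 to 10 when a sample was left out. The 10 with the block were 31.25% of the 32, where that fit called 20.8% of all tested genes. Between the knockdowns the called histone genes numbered 2 under the stricter rule and 4 to 15 when a sample was left out, and 12 with the replicate block. These 12 were 37.5% of the 32, where that fit called 29.0% of all tested genes. For si mH2A1.2 against si Ctrl each alternative gave 0. Leaving out the 5 genes that reached the filter only with si mH2A1.1 samples (chosen after seeing the data) gave 4 for si mH2A1.1 against si Ctrl, 8 between the knockdowns and 0 for si mH2A1.2 against si Ctrl. With the block, the adjusted p (edgeR) of si mH2A1.1 against si Ctrl went to 0.00619 for Hist1h3d, 0.0156 for Hist1h2ac, 0.0359 for Hist1h2ad, 0.0395 for Hist1h1e and 0.0468 for Hist1h2bg, and between the knockdowns to 0.00565 for Hist1h3d, 0.00725 for Hist1h2ac, 0.0397 for Hist1h2ad and 0.0193 for Hist1h2bg.

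Over all tested genes, si mH2A1.1 against si Ctrl gave 3354 calls in DESeq2, 4065 with the block, 4091 in DESeq2 with the block, 352 under the stricter rule and 605 to 2928 with a sample left out. For si mH2A1.2 against si Ctrl these were 1113, 1005, 1580, 35 and 74 to 544, and between the knockdowns 1247 under the stricter rule and 2251 to 4616 with a sample left out.

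Summed over the 3 comparisons, calls in histone mRNA processing were 13 with the block, 15 in DESeq2 with the block, 0 under the stricter rule and 0 to 9 with a sample left out. Chaperones had 8 in DESeq2 and without a filter, 9 with the block in edgeR and in DESeq2, 1 under the stricter rule and 1 to 7. Replication-independent histones had 8 in DESeq2, 9 with the block, 10 in DESeq2 with the block, 1 under the stricter rule and 2 to 6. S phase genes had 48 in DESeq2 with the block, 2 under the stricter rule and 3 to 47, and mitosis genes 19 with the block, 26 in DESeq2 with the block, 6 under the stricter rule and 6 to 19.

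Same-numbered samples of si mH2A1.1 and si Ctrl correlated at 0.0841 to 0.0976 in their deviations from the group means (0 of 3 pairs over 0.1), and those of si mH2A1.1 and si mH2A1.2 at 0.0917 to 0.116 (2 of 3). By the rule above these comparisons were not treated as paired, although every same-numbered pair correlated above 0. Whether their samples share more than a number cannot be told from the labels. Samples of unlike number correlated at a mean of -0.0773 (18 pairs) and at most at 0.0358. In 18 of 18 cases a sample correlated best with its own number in another group, a hint from the data and not from the design. Few reads limit the histone genes, since 35 of 67 were left out.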
